A study of Mus musculus with 3 samples.

Results

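Monocytes marked by F13a1, Vcan and Hp were described among leukocytes of mouse melanoma grafts, in 1 library each from hosts aged 4, 12 and 20 months. A cell was a member when its F13a1, Vcan and Hp counts summed to at least 4 and it held at least 1 count of Csf1r, Fcgr1 or Cd14, genes of mononuclear phagocytes. It also had to hold fewer than 10 counts of C1qa, C1qb and C1qc (complement genes of macrophages) and at most 2 of Ear2, Ace and Adgre4 (nonclassical monocytes). The last conditions allowed at most 3 counts of Ngp, Camp and Ltf (neutrophil granules), 1 of Cd3d, Cd3e and Cd3g (T cells) and 1 of Ncr1 and Klrb1c (NK cells). Members numbered 474, 115 and 189 at 4, 12 and 20 months, 778 of 43730 deposited cells. They were chosen by measured counts of those genes in the same cells, so the levels of the rule's genes, and the differences between members and other cells, are given as descriptions with no test.

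The grafts were of YUMM1.7, a transplantable line from the melanoma of a genetically engineered mouse, placed under the skin as 500000 cells. Tumours were harvested after 18 days from 7 mice at each age, and viable cells carrying CD45, a leukocyte surface protein, were sorted from the digest. All 3 groups received the same graft with no other treatment named in the labels, which also name no strain or sex. Each age is 1 library made with a PIP-seq 3′ kit, a droplet method without a microfluidic chip, and whether it holds cells of 1 mouse or of all is not stated. The series title asks how age relates to tumour macrophages expressing the receptors TREM1 and TREM2.

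Classical monocytes leave the bone marrow through the chemokine receptor Ccr2, circulate with high Ly6c2, and enter inflamed tissue and tumours, where they can become macrophages and dendritic cells. As they mature they lower granule and marrow genes and raise complement, lipid-handling and class II antigen presentation genes. F13a1 encodes the coagulation factor XIII A chain, which cross-links fibrin, Vcan a large matrix proteoglycan, and Hp haptoglobin, which binds free haemoglobin.

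The 3 libraries held 14393, 14653 and 14684 cells with 110371225, 127850782 and 119873564 counts. Members had median depths of 6817, 7033 and 6351 counts per cell, and their counts summed to 3344799, 838673 and 1281319, so values at 12 months rest on the fewest counts. With 1 library per age no comparison of ages has a replicate check and no p-value is given. Intervals are 95% intervals of counting error only: exact Poisson for levels, Clopper-Pearson for shares, and an exact binomial split for log2 ratios. Both ratios, 12 over 4 and 20 over 4 months, share the 4-month library. The libraries shared 2 to 4 cell barcodes per pair, and no shared barcode was a member in both. Levels are the summed counts of a cell group scaled to a total of 1000000 (CPM). A 3′ kit reads 1 end of each transcript, so levels were not divided by gene length.

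Each of the 3 naming genes was found in most members. F13a1 had a count in 84.6%, 77.4% and 84.1% of members at 4, 12 and 20 months, Vcan in 62.9%, 61.7% and 66.1%, and Hp in 93.7%, 95.7% and 96.8%. All 3 genes were present together in 47.9%, 48.7% and 56.1% of members, and 1 of them alone in 6.75%, 13.9% and 8.99%. The summed F13a1, Vcan and Hp count had a median of 9, 8 and 10 per member, whereas it was 0 in 87.0%, 88.5% and 88.9% of T cells (at least 3 Cd3 counts, no monocyte receptor count). On GRCm38, F13a1 lies at chr13:36867178-37050244 and Vcan at chr13:89655312-89742509, both on the minus strand, and Hp at chr8:109575128-109579172 on the minus strand.

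The other 4 genes listed as markers of these cells did not enter the rule, but were listed with earlier results of these data known. Their levels are thus a description. Each stood far above its level in C1q macrophages. Those macrophages were defined here by at least 10 C1q counts and at most 3 of F13a1, Vcan and Hp. They also met the other 5 conditions of the rule. Fn1, which encodes fibronectin (chr1:71585520-71653200, minus strand), measured 718, 671 and 944 CPM in members at 4, 12 and 20 months and 48.2, 34.4 and 52.1 CPM in C1q macrophages. Thbs1, encoding the matrix glycoprotein thrombospondin-1 (chr2:118111876-118127133, plus strand), measured 369.8, 440.0 and 599 CPM against 34.0, 35.0 and 53.0 CPM. Mgst1, a membrane-bound glutathione transferase (chr6:138140316-138156755, plus strand), measured 398, 389 and 387 CPM against 20.9, 18.2 and 24.95 CPM. Gda, the guanine deaminase (chr19:21391307-21473445, minus strand), measured 329, 301 and 369 CPM against 37.1, 16.9 and 33.3 CPM. All 4 were present at every age. Gda was the least particular, since nonclassical monocytes (at least 3 counts of Ear2, Ace and Adgre4) held 231, 199 and 213 CPM. The 7 markers summed to 3305, 3194 and 3898 CPM in members and 674.1, 514.4 and 813.5 CPM in nonclassical monocytes. They summed to 180, 149 and 207 CPM in C1q macrophages and 70.0, 51.8 and 53.5 CPM in T cells.

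**Figure D1:**
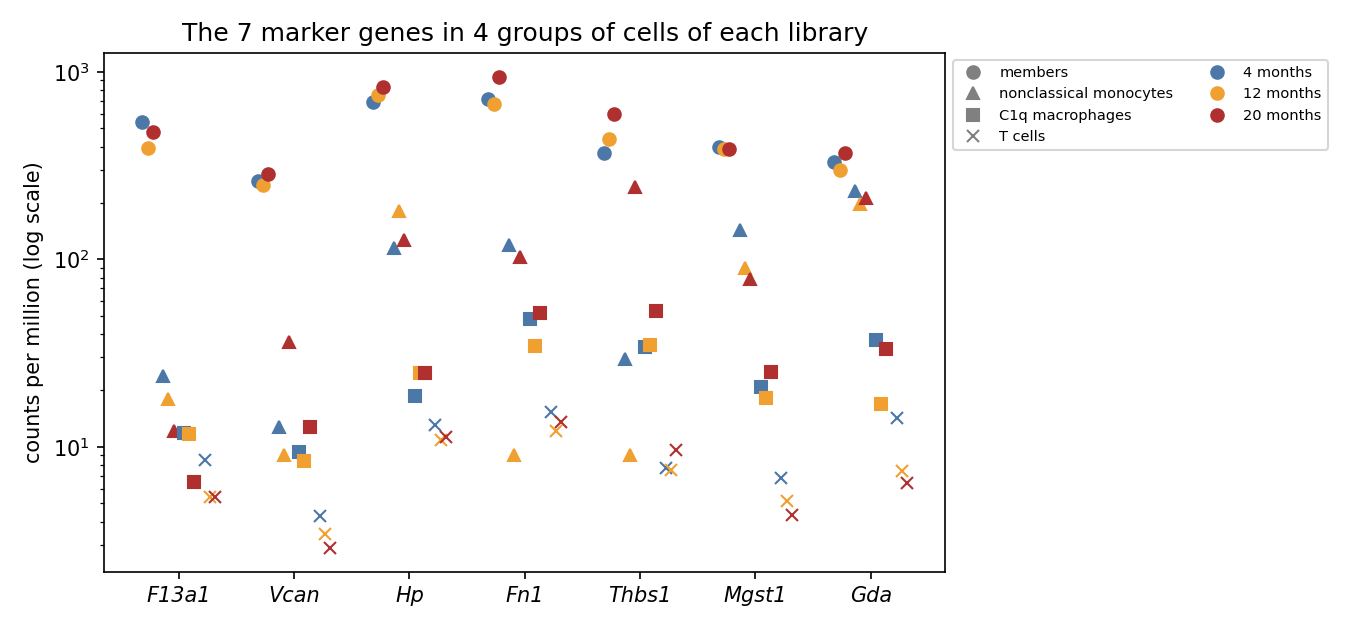
Level in CPM (log axis) of the 7 marker genes in members, nonclassical monocytes, C1q macrophages and T cells of the 4-, 12- and 20-month libraries, 1 point per cell group and library. F13a1, Vcan and Hp chose the members, while Fn1 and Mgst1, which did not, sit between 387 and 944 CPM in members and at or below 52.1 CPM in C1q macrophages.

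With every cell thinned to 3500 counts, Fn1 had a count in 72.4%, 75.7% and 83.1% of members (85.4%, 87.8% and 86.8% before thinning) and in 4.87%, 3.25% and 3.93% of T cells, which should lack it. For Thbs1 the shares were 40.9%, 42.6% and 52.9% of members (51.9%, 52.2% and 64.0% before thinning) and 2.74%, 2.46% and 3.18% of T cells. Both genes were thus found in members far beyond their share in T cells, whose median depths were 4898, 5794 and 5586 counts. Mgst1 was found in 64.8%, 65.2% and 65.1% of members, and Gda in 58.9%, 51.3% and 62.4%.

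The threshold of 4 counts divided a continuum. Members at exactly 4 numbered 65, 23 and 17, and cells that met all other conditions at 3 counts numbered 68, 17 and 31. Mgst1 measured 196, 192 and 187 CPM just inside and 155, 81.3 and 175 CPM just outside. Fn1 measured 254, 299 and 728 CPM just inside and 317, 425 and 422 CPM just outside, so cells below the threshold also carried the matrix gene. Lyz2, encoding lysozyme, measured 18376, 16827 and 24039 CPM just inside and 14797, 13927 and 15123 CPM just outside.

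Genes of circulating classical monocytes were abundant in members, but not only there. The list summed to 26652, 25632 and 25756 CPM in members and 23791, 22624 and 22699 CPM in nonclassical monocytes. It summed to 17353, 14264 and 14636 CPM in C1q macrophages and 12143, 12188 and 11620 CPM in T cells. Of 20 listed classical monocyte genes, 16 were higher in members than in C1q macrophages in all 3 libraries and 3 were lower, where 38.2% of the 5925 genes compared were higher and 32.6% lower. Plac8, a small cysteine-rich protein of myeloid cells, measured 6961, 6273 and 6651 CPM. Chil3, a chitinase-like protein secreted by monocytes, measured 1188, 1129 and 980 CPM against 143, 73.9 and 128 CPM in C1q macrophages. Ifitm6, an interferon-induced membrane protein of myeloid cells, measured 625, 478 and 596 CPM against 72.4, 51.9 and 68.4 CPM. Chil3 and Ifitm6 were chosen after their values were seen. Ccr2 measured 776, 949 and 863 CPM. Ly6c2, the surface protein by which classical monocytes are sorted, was an exception, at 3702, 3930 and 3248 CPM in members and 5035, 4196 and 3510 CPM in C1q macrophages. T cells held more still, 5262, 5671 and 4746 CPM.

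Granule and secretory genes set the members apart from C1q macrophages in the same direction. Of 11 listed granule and early myeloid genes in the comparison, 10 were higher in members in all 3 libraries and none was lower. Hp, whose direction the rule fixed, is 1 of those 10. Lyz2 led them at 28567, 24031 and 25775 CPM. Slpi, a secreted inhibitor of neutrophil proteases, measured 440, 330 and 327 CPM in members against 26.0, 35.7 and 21.8 CPM in C1q macrophages. Mmp8, the neutrophil collagenase, measured 83.4, 57.2 and 98.3 CPM against 1.37, 1.30 and 1.68 CPM. Markers of neutrophils as a list summed to 247, 291 and 250 CPM in members and 69.7, 98.6 and 92.1 CPM in C1q macrophages. Of that list, Retnlg, Ly6g and Ngp were at 0 in members at 4 months and Cxcr2 at 20 months, while none was at 0 at 12 months.

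Among genes outside the rule, the 15 that stood highest over C1q macrophages were Fn1, Thbs1, Mgst1, Slpi, Mmp8, Lrg1, Serpinb10, Lypd10, Il6, Pi16, Gpat3, Rhov, Stxbp6, Tarm1 and Nfe2. Il6, the cytokine interleukin-6, measured 38.9, 31.0 and 35.9 CPM in members and 2.15, 0.648 and 2.64 CPM in C1q macrophages. Gpat3, an acyltransferase of triglyceride synthesis, measured 89.4, 56.0 and 53.9 CPM against 3.71, 4.54 and 2.40 CPM. The 10 that stood lowest were H2-Eb1, Cd72, Ms4a7, Pf4, Hpgds, Cadm1, Cd300e, Olfml3, Ccl8 and Tlr12. Ms4a7, a membrane protein of macrophages, measured 64.9, 72.7 and 73.4 CPM against 893.5, 735 and 1107 CPM.

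Macrophage genes were low but not absent. C1qa measured 153, 208 and 247 CPM in members, close to the 156, 194 and 268 CPM of T cells and far below the 3810, 3937 and 4604 CPM of C1q macrophages, whose definition used it. The macrophage marker list summed to 1110, 1564 and 1702 CPM in members, 11627, 12490 and 15154 CPM in C1q macrophages and 512, 699 and 977 CPM in T cells. Markers of T cells summed to 370, 550 and 444 CPM in members against 8072, 7688 and 6695 CPM in T cells, and markers of NK cells to 315, 224 and 151 CPM. Fibroblast markers reached at most 5.98 CPM and melanoma markers 32.6, 28.6 and 38.2 CPM. Of the 15 macrophage maturation genes compared, none was higher in members than in C1q macrophages in all 3 libraries and 12 were lower, and all 6 class II genes compared were lower. The conditions on C1q, Cd3 and NK counts fixed part of these levels. Of genes outside the rule, the 4 further markers, Plac8, Chil3, Ifitm6, Lyz2, Slpi and Mmp8 were above C1q macrophages in all 3 libraries. The lists they come from are not all outside it. The classical monocyte list includes Csf1r, Fcgr1 and Cd14, and the granule list includes Hp. Of the 20 classical monocyte genes, 3 were lower in members than in C1q macrophages in all 3 libraries, Ly6c2 among them.

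Members made up less of the 12- and 20-month libraries. Their share of deposited cells was 3.29% (3.01 to 3.598), 0.785% (0.648 to 0.941) and 1.29% (1.11 to 1.48) at 4, 12 and 20 months. Against 4 months the share was 4.196-fold lower at 12 months, a log2 ratio of -2.07 (-2.38 to -1.77), and 2.56-fold lower at 20 months, a log2 ratio of -1.36 (-1.61 to -1.11). None of these intervals overlap. The size of the difference depended on the condition that allows at most 1 count of Cd3d, Cd3e and Cd3g. Cells that met the 5 conditions before it numbered 1201, 714 and 717, and it removed 56.1%, 82.8% and 72.5% of them. These cells had medians of 2, 3 and 3 Cd3 counts. Other myeloid cells differed in the same order: all cells with at least 10 C1q counts had medians of 2, 5 and 4 Cd3 counts, and 12.0%, 2.15% and 4.49% of them had none. Median Cd3 counts and the members' share thus moved together over the libraries, and the part of one in the other was not tested beyond the wider limits that follow.

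A wider set, which allowed up to 10 Cd3 counts and 5 of Ncr1 and Klrb1c and was chosen after those values were seen, held 1175, 682 and 698 cells. It made up 8.16% (7.72 to 8.62), 4.65% (4.32 to 5.01) and 4.75% (4.42 to 5.11) of deposited cells, log2 ratios of -0.81 and -0.78. The share was again highest at 4 months, by a smaller margin, and the intervals of 12 and 20 months overlapped. Among myeloid cells held to the same T, NK and neutrophil limits (2135, 576 and 1190 cells), members made up 22.2% (20.5 to 24.0), 20.0% (16.8 to 23.5) and 15.9% (13.9 to 18.1). There the log2 ratio at 12 months was -0.15 (-0.46 to 0.14), which spans 0, and at 20 months -0.48 (-0.73 to -0.24). Among the matching wider myeloid cells the wider set made up 18.4%, 14.0% and 11.4%. C1q macrophages made up 4.75%, 1.45% and 4.03% of deposited cells under the rule's own T and NK limits, a 20-month log2 ratio of -0.24 (-0.40 to -0.08). Under the wider limits they made up 15.4%, 14.6% and 21.3%, a 20-month ratio of 0.47 (0.39 to 0.55), so their direction depended on the limits, while that of the monocytes did not.

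**Figure D2:**
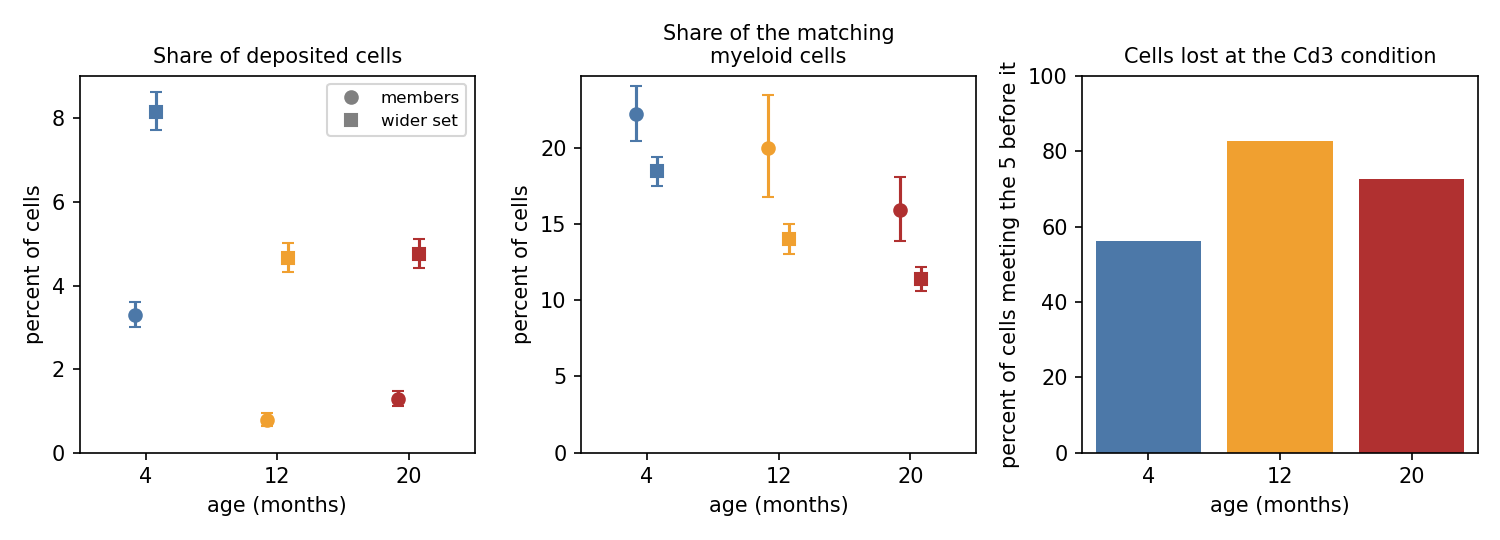
Left, share of deposited cells that were members and that were in the wider set, in percent by age. Middle, share of members and of the wider set among myeloid cells under the matching limits. Both panels show 95% Clopper-Pearson intervals. Right, percent of cells meeting the conditions before it that the Cd3 condition removed, as bars without intervals. Members' share of deposited cells was highest at 4 months (3.29%), and the Cd3 condition removed the most cells at 12 months (82.8%).

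Most genes differed little between ages within members. Of 5925 genes with a mean of at least 20 CPM, 388 (6.55%) were at least 1.5-fold higher at 12 than at 4 months and 239 (4.03%) at least 1.5-fold lower. At 20 months 256 genes (4.32%) were higher and 175 (2.95%) lower by that fold. In the wider set, with more counts, 151 of 5960 genes (2.53%) were higher and 49 (0.822%) lower at 12 months, and 128 (2.15%) higher and 67 (1.12%) lower at 20 months. The count of genes past 1.5-fold was thus smaller in the wider set. That set differs in its Cd3 and NK limits as well as in cell number, and the part of each was not tested. The median log2 ratio over all genes compared was 0.03 at 12 and 0.04 at 20 months. In what follows, counts of genes higher or lower in a list use that 1.5-fold limit, and every list is read beside these shares and medians.

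**Figure D3:**
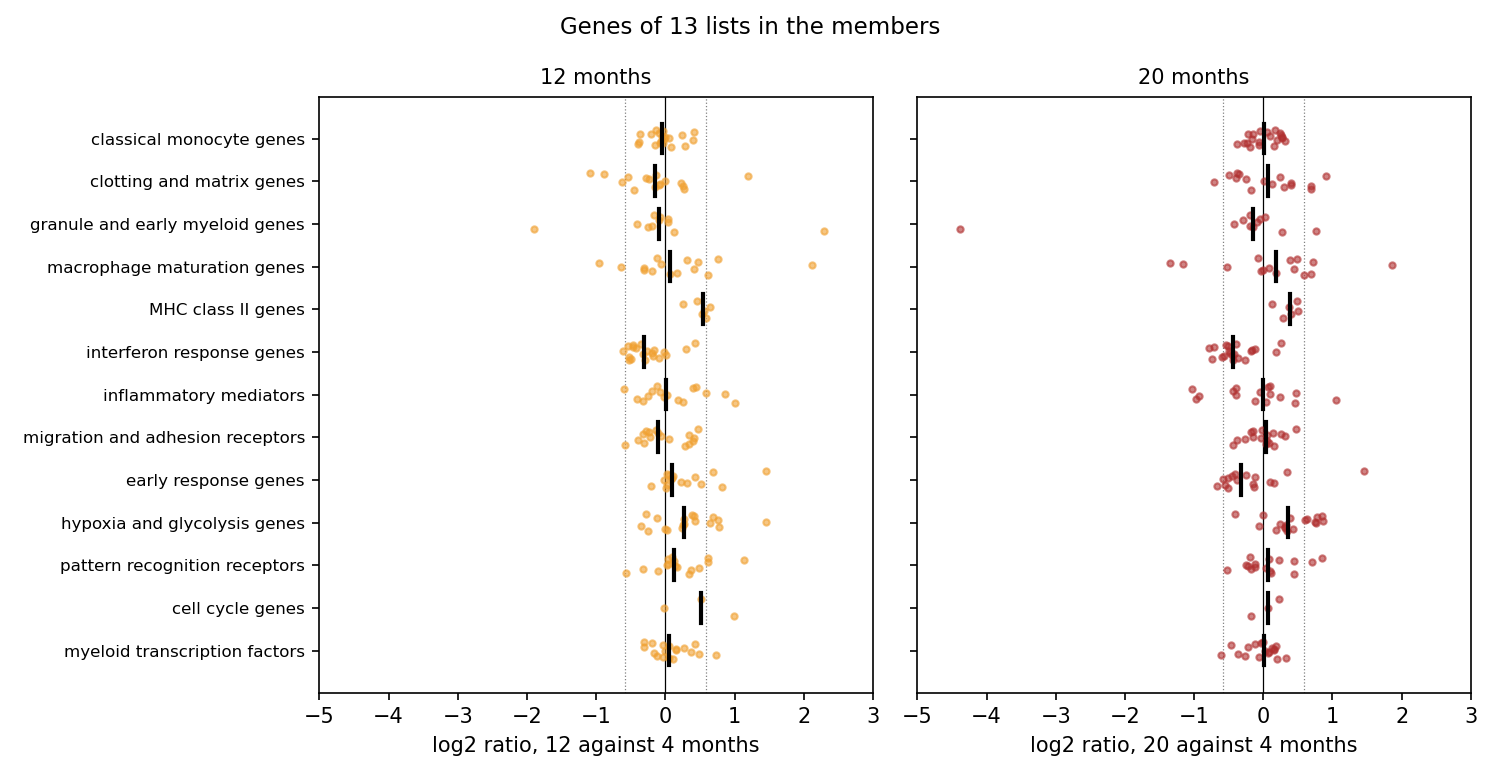
Log2 ratio of 12 over 4 months and of 20 over 4 months for each compared gene of 13 gene lists in members, with the list median as a bar and 1.5-fold as dotted lines. The interferon response list has its medians at -0.31 and -0.44 and the hypoxia and glycolysis list at 0.27 and 0.36.

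The identity genes kept their levels. None of the 20 classical monocyte genes was called higher or lower at either age, with list medians of -0.05 and 0.01. Plac8 had log2 ratios of -0.15 and -0.07. The 17 migration and adhesion receptors compared also gave no call, with medians of -0.10 and 0.04. Ccr1, a receptor for CCL3 and CCL5, measured 412, 275 and 305 CPM, log2 ratios of -0.58 at 12 months, just inside the 1.5-fold limit, and -0.43 at 20 months. Itgam, the CD11b integrin chain, measured 141, 135 and 175 CPM.

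Genes of clotting and matrix did not move as a block. Of 16 compared, 1 was higher and 3 lower at 12 months (median -0.14), and 3 were higher and 1 lower at 20 months (median 0.07). Thbs1 had log2 ratios of 0.25 (0.08 to 0.42) and 0.70 (0.56 to 0.83), with the 20-month library above both others. At 12 months 50.7% of its counts lay in 10 members, and the ratio turned to -0.08 with the rule applied to thinned cells. Without the 10 highest members the 12-month ratio was -0.51. However, 10 cells are a larger part of 115 members than of 474, which lowers that ratio by construction. In the wider set the ratios were 0.11 and 0.70, and in C1q macrophages the 20-month ratio was 0.64 at 34.0, 35.0 and 53.0 CPM. Fn1 had ratios of -0.10 (-0.23 to 0.04) and 0.40 (0.29 to 0.50), so only the 20-month library stood apart. F10, which encodes coagulation factor X, measured 67.0, 81.1 and 108.5 CPM, ratios of 0.28 (-0.14 to 0.67) and 0.70 (0.38 to 1.01), and was at 9.57, 8.43 and 5.997 CPM in C1q macrophages. Tgfbi, an adhesive matrix protein induced by TGF-beta, measured 1196, 1405 and 1571 CPM with ratios of 0.23 and 0.39.

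Other genes of matrix turnover went opposite ways. Plaur, the urokinase receptor, which focuses plasmin formation on the cell surface, measured 611, 396 and 371.5 CPM, ratios of -0.63 (-0.80 to -0.46) and -0.72 (-0.87 to -0.57), with 4 months above both others. Mmp14, a membrane-bound collagenase, measured 35.9, 82.3 and 67.1 CPM, ratios of 1.20 (0.75 to 1.64) and 0.90 (0.49 to 1.32), with 4 months below both others. C1q macrophages held 160, 156 and 183.5 CPM of Mmp14. Timp1, an inhibitor of matrix metalloproteases, measured 49.3, 19.1 and 20.3 CPM, ratios of -1.37 and -1.28. It was at 8.20, 2.59 and 3.36 CPM in C1q macrophages. Dmkn, a secreted protein described in skin, measured 71.5, 23.9 and 42.9 CPM, with ratios of -1.58 (-2.32 to -0.92) and -0.74 (-1.19 to -0.31). Its level in T cells and C1q macrophages was at most 3.32 CPM.

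Of the granule and early myeloid genes, 1 of 11 was higher and 1 lower at each age, with medians of -0.10 and -0.15. Lyz2 had ratios of -0.25 and -0.15, and Slpi of -0.41 and -0.43. The genes past 1.5-fold were the alarmins S100a8 and S100a9, subunits of calprotectin. S100a8 measured 26.3, 129 and 44.5 CPM and was found in 3.59%, 7.83% and 7.41% of members thinned to 3500 counts. S100a9 measured 49.0, 13.1 and 2.34 CPM, but 146 of its 164 counts at 4 months came from 1 member. Most members held neither gene.

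Chemokines and other inflammatory mediators differed between ages in both directions. Of 16 compared, 3 were higher and 1 lower at 12 months, and 1 was higher and 3 were lower at 20 months, with medians of 0.01 and -0.01. Ccl2, the main ligand of Ccr2, measured 1504, 1134 and 766 CPM, ratios of -0.41 (-0.51 to -0.31) and -0.97 (-1.07 to -0.87), and the 3 levels did not overlap. The wider set gave -0.46 and -0.87. C1q macrophages held 642, 539 and 561.5 CPM and T cells 62.2, 51.2 and 42.5 CPM, so the level in members was above both at every age.

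Il1rn, the antagonist of the interleukin-1 receptor, followed the same order at 334, 219 and 164 CPM, ratios of -0.60 (-0.84 to -0.38) and -1.03 (-1.25 to -0.81). Il1b, which encodes the agonist interleukin-1 beta, did not. It measured 802, 1611 and 1103 CPM, ratios of 1.00 (0.91 to 1.10) and 0.46 (0.36 to 0.55), with 12 months the highest and 4 months the lowest. In C1q macrophages Il1b was at 1259, 1243 and 1077 CPM. Ccl4, a chemokine that T cells also make, measured 897, 750.0 and 469 CPM in members and 1283, 1147 and 1013 CPM in T cells, with ratios in members of -0.26 and -0.93. Cxcl2, a neutrophil chemokine, measured 115, 131 and 238 CPM, but 85.9% of its counts at 20 months came from 10 members. Arg1, arginase 1, measured 19.1, 83.5 and 69.5 CPM and was as uneven, with 90% and 89.9% of its counts at 12 and 20 months in 10 members.

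**Figure D4:**
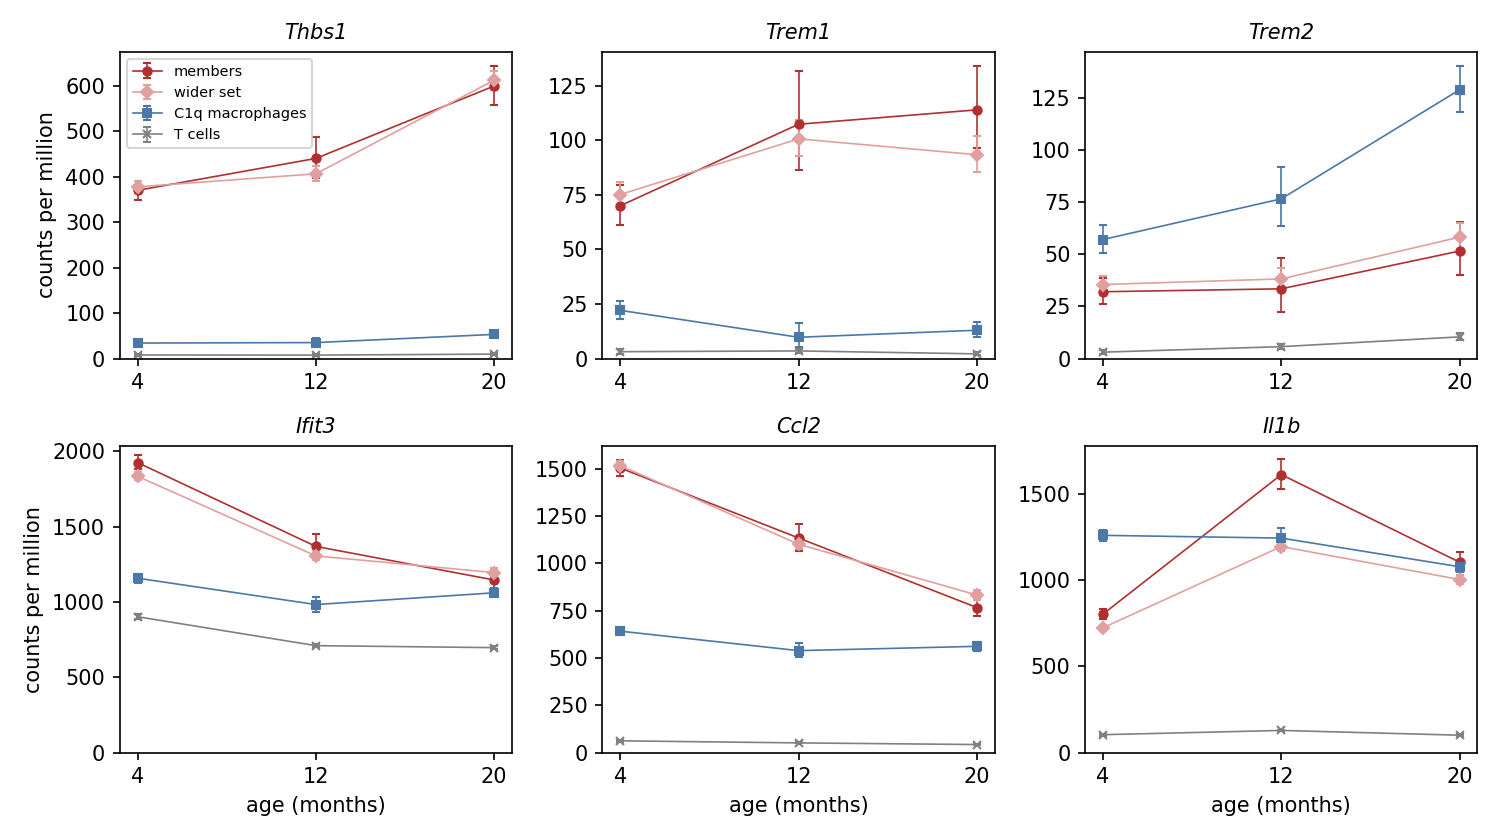
Level in CPM of Thbs1, Trem1, Trem2, Ifit3, Ccl2 and Il1b by age in members, the wider set, C1q macrophages and T cells, with 95% Poisson intervals. Thbs1 in members goes from 369.8 to 599 CPM and Ccl2 from 1504 to 766 CPM between 4 and 20 months, and Trem1 lies higher in members than in C1q macrophages in each library.

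Interferon response genes had list medians below 0 at both older ages. Of 20 compared, none was higher and 1 was lower at 12 months (median -0.31), and none was higher and 4 were lower at 20 months (median -0.44). In the wider set 1 was lower at each age, with medians of -0.34 and -0.38. The list summed to 23271, 20253 and 18024 CPM in members, 17494, 14716 and 15627 CPM in C1q macrophages and 9097, 7636 and 7237 CPM in T cells. The 2 older libraries were below the 4-month library in all 3 cell groups. Ifit3, an antiviral protein induced by type I interferon, measured 1926, 1369 and 1146 CPM in members, ratios of -0.49 (-0.58 to -0.40) and -0.75 (-0.83 to -0.67). Gbp2, a GTPase induced by interferon-gamma, measured 361, 269.5 and 210 CPM, ratios of -0.42 and -0.78. Rsad2, the antiviral enzyme viperin, measured 1713, 1195 and 1136 CPM, ratios of -0.52 and -0.59.

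Not every gene of that list was lower. Cxcl10, a chemokine that draws Cxcr3-bearing T cells, measured 3477, 3503 and 2553 CPM, ratios of 0.01 (-0.05 to 0.07) and -0.45 (-0.50 to -0.39), so only 20 months differed. C1q macrophages held 914, 811 and 1080 CPM of it. Ifitm3, a membrane protein that blocks virus entry, had ratios of -0.17 and -0.16. Ly6a, chosen after its values were seen, went the other way at 485, 655 and 578 CPM.

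Immediate-early genes, which are induced within minutes of stimulation or tissue handling, had a list median below 0 at 20 months, but few passed 1.5-fold. Of 16 compared, with heat shock genes in the same list, 3 were higher and none lower at 12 months (median 0.10), and 1 was higher and 2 lower at 20 months (median -0.32). In the wider set 1 was higher and none lower at 20 months, with a median of -0.27. Jun and Junb, subunits of the AP-1 transcription factor, measured 599, 519 and 378 CPM and 964, 979 and 656 CPM, with 20-month ratios of -0.66 (-0.81 to -0.52) and -0.55 (-0.67 to -0.44). Fos, their partner, measured 1272, 1279 and 894 CPM, with a 20-month ratio of -0.51, so Junb and Fos stayed within 1.5-fold. C1q macrophages held Fos at 1336, 1664 and 946 CPM, and T cells Junb at 740, 726 and 461 CPM, both lowest at 20 months. The heat shock gene Hspa1b was higher at both older ages, at 23.0, 63.2 and 63.2 CPM, a ratio of 1.46 each. It measured 23.4, 59.6 and 37.2 CPM in C1q macrophages and 15.4, 30.3 and 29.3 CPM in T cells.

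Class II antigen presentation genes had list medians above 0 at both older ages. Of 6 compared, 2 were higher at 12 months (median 0.55) and none at 20 months (median 0.39), and none was lower. The wider set had 4 higher at 12 months and 1 at 20 months. Cd74, the invariant chain that escorts class II molecules, measured 2275, 3570 and 2942 CPM, ratios of 0.65 (0.59 to 0.71) and 0.37 (0.31 to 0.43). H2-Eb1, a class II beta chain, measured 492, 726 and 694 CPM, ratios of 0.56 and 0.50. T cells, which in mice make little class II, held 503, 658 and 681 CPM of H2-Eb1 and 1635, 2057 and 1923 CPM of Cd74, both lowest at 4 months as in members. The part of free class II RNA in the members' ratios was not tested.

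Macrophage maturation genes gave 3 higher and 2 lower of 15 at 12 months (median 0.06) and 4 higher and 2 lower at 20 months (median 0.18). Apoe, a lipid carrier secreted by macrophages, measured 666, 1018 and 1004 CPM in members, ratios of 0.61 (0.50 to 0.73) and 0.59 (0.49 to 0.69), while T cells held 134, 229.5 and 335 CPM and C1q macrophages 2454, 3080 and 4464 CPM. Aif1, an actin-binding protein of macrophages, measured 453, 771.5 and 633 CPM, ratios of 0.77 (0.63 to 0.90) and 0.48 (0.36 to 0.61), where T cells were level at 146, 144 and 160 CPM. Cd9, a tetraspanin, went the other way at 69.4, 35.8 and 27.3 CPM, ratios of -0.96 (-1.56 to -0.40) and -1.34 (-1.90 to -0.83). Apoe and Aif1 were thus lowest in members at 4 months, and Cd9 was highest there.

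Of the receptors named in the series title, Trem1, which amplifies inflammatory signals in monocytes and neutrophils (chr17:48232768-48246924, plus strand), was the more abundant in members. It measured 70.0, 107 and 114 CPM, ratios of 0.62 (0.25 to 0.97) and 0.70 (0.40 to 1.01), with 4 months below both others. With cells thinned to 3500 counts, 18.6%, 30.4% and 29.1% of members held a Trem1 count (29.96%, 41.7% and 37.0% before thinning), against 1.09%, 1.04% and 0.830% of T cells. In C1q macrophages Trem1 measured 22.1, 9.73 and 12.95 CPM, highest at 4 months, where members were lowest. The 12- and 20-month levels in C1q macrophages lay below 20 CPM. In the wider set its ratios were 0.42 and 0.31, in the same direction and below 1.5-fold.

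Trem2, a lipid-sensing receptor of tissue macrophages (chr17:48346401-48354147, plus strand), measured 32.0, 33.4 and 51.5 CPM in members. Its ratios were 0.06 (-0.59 to 0.67) and 0.69 (0.22 to 1.14), so only 20 months stood above. C1q macrophages held 57.0, 76.5 and 129 CPM and T cells 3.04, 5.68 and 10.4 CPM, both highest at 20 months. Among thinned members 10.1%, 13.04% and 12.7% held a Trem2 count (16.7%, 18.3% and 24.3% before thinning), against 0.957%, 1.87% and 2.85% of T cells. Trem1 exceeded Trem2 in members of every library, and Trem2 exceeded Trem1 in C1q macrophages of every library.

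Glycolytic and hypoxia-induced genes had list medians above 0 at both older ages in members. Of 18 compared, 5 were higher at 12 months (median 0.27) and 7 at 20 months (median 0.36), and none was lower. The list summed to 3395, 3829 and 3970 CPM in members, 3308, 3060 and 3004 CPM in C1q macrophages and 2763, 2847 and 2711 CPM in T cells. Tpi1, the glycolytic triosephosphate isomerase, measured 137, 184 and 247 CPM, ratios of 0.42 (0.15 to 0.69) and 0.85 (0.64 to 1.06), with T cells at 119.5, 115 and 130 CPM. Ero1l, an oxidase of protein folding that hypoxia induces, measured 29.3, 39.4 and 53.1 CPM, ratios of 0.43 (-0.19 to 1.01) and 0.86 (0.39 to 1.32). Ldha, lactate dehydrogenase A, measured 465, 550 and 577 CPM, with ratios of 0.24 and 0.31. Gapdh, whose many near-identical copies make its counts uncertain, measured 136, 212 and 230 CPM in members and 152, 217 and 225 CPM in T cells, the same order. The wider set had 1 gene higher at 12 months (median 0.29) and 4 at 20 months (median 0.31). Among the 7 genes at least 2-fold above T cells, the medians in members were 0.02 and 0.38.

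The remaining lists held few calls. Of 16 pattern recognition receptors, Trem1 among them, 3 were higher at 12 months and 2 at 20 months, with medians of 0.13 and 0.06. Cd300ld, an activating receptor of myeloid cells, measured 28.1, 42.9 and 50.7 CPM, with a 20-month ratio of 0.85 (0.37 to 1.32). Of 18 myeloid transcription factors, 1 was higher at 12 months and 1 lower at 20 months. Both calls were of Klf2, a regulator of quiescence and trafficking, at 104, 172 and 67.9 CPM, ratios of 0.73 (0.44 to 1.01) and -0.61 (-0.97 to -0.27). Stat3, which carries interleukin-6 signals, measured 299.6, 293 and 216 CPM. Only 3 of 15 cell cycle genes reached 20 CPM, and Mki67 and Top2a were not among them. Ccnd1, cyclin D1, measured 282, 166 and 154.5 CPM, ratios of -0.77 and -0.87.

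Single genes with the largest ordered differences at 20 months, among those at least 2-fold above T cells, included a secreted protein on the higher side. Lrg1, a leucine-rich glycoprotein of the acute phase, measured 8.37, 14.3 and 40.6 CPM from 28, 12 and 52 counts, a 20-month ratio of 2.28 (1.59 to 2.995), and had 0 counts in C1q macrophages at 4 months. Of its 20-month counts 76.9% lay in 10 members. Tmem37, a calcium channel subunit, measured 24.5, 46.5 and 69.5 CPM, ratios of 0.92 and 1.502 (1.05 to 1.95). Inpp4a, Icosl, Gm34084 and Dhrs3 were also on this side. Rps6ka5 was there too, with 85.2% of its 20-month counts in 10 members. Gm35998 had 0, 29 and 56 counts, of which 28 and 56 lay in 1 member of each library.

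Among the largest lower genes at 20 months, Carmil1, a regulator of actin capping, measured 51.1, 28.6 and 21.1 CPM, a ratio of -1.28 (-1.92 to -0.69). Homer1, a scaffold protein, measured 46.3, 32.2 and 22.6 CPM, a ratio of -1.03 (-1.66 to -0.45). Tnfrsf12a, the receptor of the cytokine TWEAK, measured 59.8, 37.0 and 30.4 CPM, a ratio of -0.97 (-1.51 to -0.47). The 3 genes had their highest level at 4 months, and Arl5b, Rhoq, Dtnbp1 and Elmo2 were also of this group.

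The largest differences at 12 months came mostly from 1 cell. Skp2 had 9, 58 and 2 counts with 56 of the 58 in 1 member, Csgalnact1 had 7, 54 and 4 with 51 of the 54 in 1 member, and Bach2os had 18, 52 and 6 with 45 of the 52 in 1 member. Saa3, an acute-phase serum amyloid, was held by more than 1 cell but by few. It measured 4.78, 59.6 and 57.8 CPM from 16, 50 and 74 counts, ratios of 3.64 (2.80 to 4.55) and 3.59 (2.80 to 4.47), and was found in 0.844%, 6.09% and 6.88% of thinned members. At 20 months 89.2% of its counts lay in 10 members. C1q macrophages held 1.76, 3.89 and 9.84 CPM. On the lower side, Dock1 had 278, 24 and 187 counts, with 61.9%, 54.2% and 90.4% of them in 10 members. Htt and Gpr137b had 12-month ratios of -1.68 and -1.66 in members, but of -0.25 and -0.47 in the wider set.

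Members varied widely among themselves in granule, class II and interferon response genes. With each cell thinned to 3500 counts, the variance of the summed list over its mean was 23.3, 20.2 and 22.9 for granule genes, 22.1, 31.1 and 33.3 for class II genes and 21.6, 27.9 and 16.9 for interferon genes at 4, 12 and 20 months. It was 6.02, 7.53 and 5.57 for classical monocyte genes. Lyz2 made up most of the granule list, at 28567, 24031 and 25775 of 33357, 28722 and 30369 CPM in members. The interferon list had medians of 77.5, 63 and 56 counts per member, and its 10th to 90th percentiles ran from 27 to 139, from 22.4 to 143 and from 22.8 to 100. The class II list had medians of 11, 14 and 13 with 90th percentiles of 22, 41 and 32.4, and its highest member held 184, 183 and 205. The classical monocyte list was tighter, with medians of 91, 91 and 89 and 10th to 90th percentiles of 64 to 123, 58.6 to 120 and 60.8 to 117. The lower interferon level of the 20-month library was thus seen in the middle and at the upper end of the distribution.

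**Figure D5:**
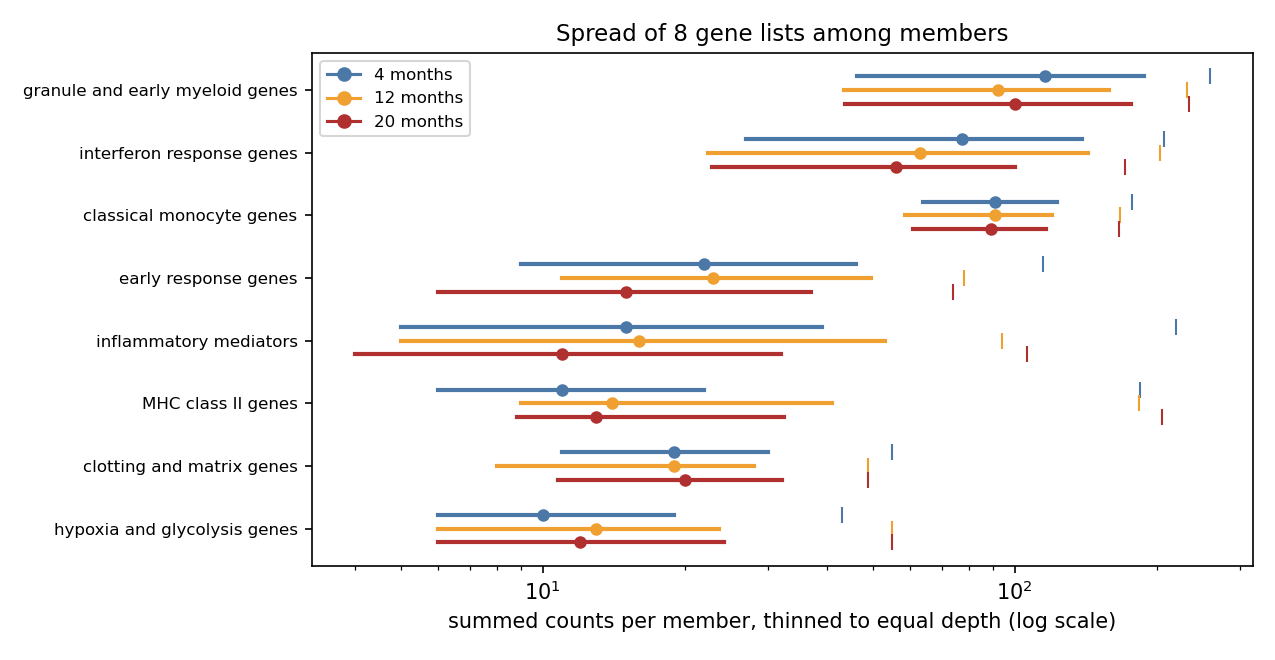
Summed counts per member of 8 gene lists with each cell thinned to 3500 counts (log axis), by age; bars span the 10th to 90th percentile, dots are medians and ticks the highest member. The interferon bar runs from 27 to 139 counts at 4 months and from 22.8 to 100 at 20 months, while the classical monocyte bars nearly coincide.

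To describe what varied with the interferon list, members of each library were ranked by it, and the upper and lower terciles (158, 38 and 63 cells each) were set side by side. The terciles are ranges of a continuous score, and 126, 23 and 48 members lay within 10% of a dividing value. Median depths were 7122, 7194 and 6884 counts in the upper terciles and 6618, 6706 and 6117 in the lower. Inflammatory mediators were higher in the upper tercile, summing to 7371, 8912 and 5690 CPM against 3206, 4631 and 4014 CPM. The granule list was lower there, at 26640, 24203 and 26106 CPM against 40385, 36444 and 37095 CPM. Most of that sum was Lyz2, at 22356, 20203 and 21688 CPM against 34968, 30743 and 32338 CPM. Other genes of the list differed: Ccl6 was lower in the upper tercile, at 673.5, 588 and 891 CPM against 1542, 1593 and 1144 CPM. Slpi was higher there at 4 months only, at 620, 309 and 244 CPM against 307.5, 356.5 and 249 CPM. The clotting and matrix list had no shared direction over the libraries, at 5521, 4938 and 5823 CPM against 5481, 5369 and 6207 CPM.

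Ccl2 measured 2123, 1824 and 1030 CPM in the upper tercile and 577, 575 and 448 CPM in the lower. Its 20-month level was thus below its 4-month level in both terciles, with the wider gap in the upper. Il1rn measured 565, 360 and 287 CPM in the upper tercile and 90.6, 50.9 and 67.1 CPM in the lower. Acod1, which makes the metabolite itaconate, measured 182, 206 and 135 CPM against 25.6, 7.28 and 29.8 CPM. Slfn4, a Schlafen gene of activated myeloid cells, had log2 ratios of upper over lower of 2.27, 2.36 and 2.24. Plac8 was higher in the upper tercile as well, with ratios of 0.83, 0.88 and 0.81.

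The 3 naming genes are given for the terciles as a description only, because cells chosen by their sum must hold more of one where they hold less of another. F13a1 measured 318, 232 and 314 CPM in the upper interferon tercile and 793, 611 and 659 CPM in the lower, whereas Vcan measured 324, 272 and 337.5 CPM in the upper and 172, 211 and 239 CPM in the lower. Hp measured 551, 592 and 784 CPM in the upper and 852, 989.5 and 855 CPM in the lower. Of genes outside the rule, Fn1 was lower in the upper tercile, with ratios of -1.25, -0.95 and -0.69, as was F10 with -1.44, -1.21 and -1.10. Ccr2 was lower there too, at 542, 577 and 623 CPM in the upper tercile and 1152, 1259 and 1099 CPM in the lower. Thbs1 differed less, at 338, 382 and 453 CPM against 378, 451 and 639 CPM, and was higher at 20 than at 4 months in both terciles. Members with strong interferon expression carried more Plac8 and less Fn1, F10 and Ccr2 in all 3 libraries.

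A second division by the class II list gave other genes. Upper and lower terciles differed in the list itself by construction, 7952, 13268 and 10563 CPM against 2377, 3186 and 3035 CPM, and 143, 41 and 77 members lay within 10% of a dividing value. Ly6i, a Ly6 family surface protein, was higher in the upper tercile with log2 ratios of 1.25, 2.88 and 2.78, and Aif1 with 0.59, 0.90 and 0.86. Cxcl16, a chemokine and scavenger receptor, gave 0.72, 1.00 and 1.10. Fn1 was lower there, with ratios of -1.01, -1.06 and -0.57, as was Slpi with -0.96, -0.95 and -0.67 and Chil3 with -0.59, -0.71 and -0.78. The granule list summed to 29439, 21127 and 26155 CPM in the upper tercile and 35076, 32984 and 33422 CPM in the lower. Most of it was Lyz2, at 25027, 17546 and 22097 CPM against 30103, 27835 and 28573 CPM. The clotting and matrix list summed to 5244, 4346 and 5385 CPM against 6077, 5812 and 6533 CPM. The granule and the clotting and matrix lists include F13a1, Vcan and Hp. Not every secreted or matrix gene was lower in the upper tercile. Il6 had ratios of 0.13, -0.33 and 0.07, and Ecm1, of the clotting and matrix list, was higher with 0.75, 0.72 and 0.63.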

How the data were processed

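Single-cell RNA was measured in 3 libraries, 1 each from tumours of 4-, 12- and 20-month-old mice. The deposited matrices hold unnormalized whole-number counts of genes by cells. STAR 2.7.10a and GRCm38 are named in the submitters' processing notes, with no role given, and whether molecules or reads were counted is not given in the sources used here. The values do not show which; intervals treat each count as independent. Of the 55401 listed gene identifiers, 98.1% occur in GENCODE M21, from which positions were taken. No cell was filtered further, no doublet caller was run, and no row lacked a gene.

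Members, comparison cells, cell type markers and 13 gene lists were chosen with earlier results of these data known. Counts were summed over the cells of a group and library and divided by the group's total (CPM), with no pseudocount, in Python 3.11.15 with numpy 2.4.6, scipy 1.17.1 and pandas 2.3.3. The comparison of ages took genes with a mean of at least 20 CPM over the 3 libraries, and 1.5-fold counted as a call. Thinning drew 3500 counts per cell without replacement. Calculations were tested on simulated data. Genes named are the 7 markers, Trem1 and Trem2; per list the 2 most abundant and the 2 with the largest 20-month ratio; the largest ordered differences at 20 months and the largest at 12 months among genes at least 2-fold above T cells; and the highest and lowest over C1q macrophages. Other genes, among them Rsad2, F10, Ccl4, Ly6a, Chil3, Ifitm6, Gapdh and the genes of the interferon and class II terciles, were chosen after their values were seen. Alternatives were other thresholds of the rule, thinning, other scalings and filters, leaving out the cells or genes' cells with most counts, and the wider set. Some genes that the rule for named genes picks are not reported here.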

Additional observations from a re-analysis of the deposited data

Results flagged for a closer look

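The results below had opposite directions between ages in members and in C1q macrophages, with both counting intervals off 0. Values are log2 ratios against 4 months, members first. With 1 library per age, none of these differences was tested. Trem1 gave 0.62 and -1.18 at 12 months and 0.70 and -0.77 at 20 months, with C1q macrophages at 9.73 and 12.95 CPM at those ages. Il1b gave 0.46 and -0.22 at 20 months, and Cxcl10 gave -0.45 and 0.24. Ccl4 gave -0.26 and 0.23 at 12 months. Class II genes at 20 months were Cd74 with 0.37 and -0.085, H2-Ab1 with 0.40 and -0.11 and H2-DMb1 with 0.49 and -0.24, and Aif1 gave 0.48 and -0.10. Lyz2 gave -0.25 and 0.25 at 12 months and -0.15 and 0.29 at 20 months. Ly6c2 gave 0.086 and -0.26 at 12 months. Ccr2 gave 0.29 and -0.18 at 12 months and 0.15 and -0.079 at 20 months. Ldha gave 0.24 and -0.23 at 12 months and 0.31 and -0.087 at 20 months. Cd300ld gave 0.61 and -0.59 at 12 months, and Klf2 gave -0.61 and 0.67 at 20 months. Arg1 at 12 months gave 2.13 and -1.36, and Cxcl2 at 20 months gave 1.04 and -0.39, both with most of the members' counts in 10 cells.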

How the results depend on the processing

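The share of members was lower at both older ages under every alternative (over myeloid cells the 12-month interval, -0.46 to 0.14, spanned 0). Its log2 ratios of -2.07 and -1.36 became -1.19 and -0.93 with the rule applied to cells thinned to 3500 counts and its first threshold lowered from 4 to 2 (983, 440 and 526 members), -0.81 and -0.78 in the wider set, -0.15 and -0.48 over myeloid cells, -2.73 and -3.14 with no C1q count allowed, and -2.91 and -1.78 with no count of other cell types' markers. The latter 2 settings left fewer than 50 members in a library and gave no value for single genes or lists. Requiring 3 counts of F13a1 and Vcan gave -2.38 at 12 months. Counts of genes past 1.5-fold are given in the order higher and lower at 12 months, then higher and lower at 20 months, and were 388, 239, 256 and 175. They became 151, 49, 128 and 67 in the wider set, 1644, 1625, 2156 and 1562 with no C1q count, and 1287, 1094, 972 and 804 with no other markers. A minimum of 50 CPM gave 100, 71, 59 and 69, and no filter gave 3580, 1906, 2900 and 1856. Thinning with the lower threshold gave 255 and 108 at 12 months. Leaving out the 10 highest members of each gene gave 37, 2497, 56 and 1020, but 10 cells are a larger part of 115 members than of 474, which lowers the older libraries by construction. Of 286 list medians recomputed, 230 moved by less than 0.1 and 56 by more, and 35 had the opposite sign, none from a median past 1.5-fold. Of 1575 values of single genes, 71 had the opposite sign, 7 of them from a ratio past 1.5-fold. These 7 were S100a9 at 12 months with 6 counts of the 3 naming genes (1.03) or 3 of F13a1 and Vcan (1.58), Lrg1 at 12 months with the latter (-0.27), and, without the 10 highest members, Arg1 (-0.20), Cxcl2 (-0.77) and Rps6ka5 (-0.83) at 20 months and Cd300ld (-0.35) at 12 months. At 12 months 115 members set the precision. The replicate number is the same for every library, so no paired analysis was possible because each age has 1 library.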
